A study of Mus musculus with 24 samples.

Results

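In mouse liver, 10 genes of fat storage and fatty acid handling were followed: the lipid droplet coat genes Plin2, Plin4 and Plin5, the droplet fusion genes Cidea and Cidec, the fatty acid carriers Cd36, Fabp1 and Fabp2, the triglyceride lipase Pnpla2 and its inhibitor G0s2. They were chosen by symbol, and all 10 were found once each among the 24421 genes of the count table. Liver RNA came from male C57Bl/6J mice on a control diet (CD, 13% fat) or a Western diet (WD, 42% fat). Both diets were combined with inhaled vinyl chloride (VC), an industrial monomer that the liver oxidises, or with clean air, in inhalation chambers on 5 days of each week, 6 hours daily, for a total of 12 weeks. The nominal VC level was 0.85 ± 0.1 ppm. Mice of the groups w12_CD, w12_CD+VC, w12_WD and w12_WD+VC were killed when the 12 weeks of exposure ended, and mice of m12_CD, m12_CD+VC, m12_WD and m12_WD+VC after 9 further months without exposure. The labels give feeding times of 12 weeks and 12 months. All mice were fasted for 4 hours. Each of the 8 groups held 3 libraries. Whether separate animals gave the libraries of a group, and how old the mice were at the start, is not stated in the labels, and the p-values speak of library-to-library spread only.

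Hepatocytes store surplus fatty acids as triglyceride in lipid droplets. Perilipins coat the droplet and regulate access of lipases to it, and Cide proteins sit at contacts between droplets and let lipid pass from the smaller to the larger one. Pnpla2, also called ATGL, takes the first fatty acid off a stored triglyceride, and G0s2 binds and inhibits it. Cd36 takes up fatty acids at the cell surface, and fatty acid binding proteins carry them inside the cell. Several of these genes are known targets of the nuclear receptor PPAR-alpha, and Plin2, Cidec, Cidea and Cd36 are commonly reported as raised in fatty liver.

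The libraries held few counts, which sets how finely these genes can be read. Of 24 libraries, 23 held 126160 to 962493 counts. The remaining one, w12_WD 3, held 607; it stayed in the fits and was left out of means, so values of w12_WD have n = 2 and all others n = 3. Levels are given as CPM, the count of a gene relative to the total of its library on the usual scale. In the 23 libraries, 0 counts of a gene leave room for a level of up to 3.12 to 23.8 CPM, by counting error alone. Library m12_WD 3, the one with most counts, stood apart from m12_WD 1 and 2 in several of the genes, and m12_CD 1 held 2 counts of Plin2 against 41 and 28 in m12_CD 2 and 3. Of all counts, 78.57% lay in entries with an exon that overlaps an opposite-strand gene, which are 5800 of the 24421 entries. The 18209 entries without such an overlap held 19.77%. Whether strand was used in counting is a setting not given in the sources, so a gene name here means the table entry of that name. Of the 10 genes, 9 have no such exon overlap in the GENCODE M21 annotation, and Plin4 shares 17 bases with Hdgfl2. The lack of an overlap does not show which strand the counts came from. Outside exons, Cidea, Fabp2 and G0s2 each still overlap the span of an opposite-strand gene. In RefSeq, the spans of Cidec and Plin2 overlap those of Gm52871 and Gm12551, which have no entry among the counted genes. Exons of RefSeq were not compared. The share of counts in entries without an overlap itself differed between the 12-month groups: it was lowest in m12_CD at 15.6% ± 3.56, followed by m12_WD+VC at 20.7% ± 2.42, m12_WD at 25.9% ± 3.89 and m12_CD+VC at 26.7% ± 4.63 (SD, n = 3). Each test was therefore also run with both classes of entries scaled separately, called class-wise scaling below. Changes are edgeR quasi-likelihood log2 changes with their standard error (SE). A gene was called when its Benjamini-Hochberg adjusted p over the 4198 tested genes was under 0.05. Where groups are said not to overlap, this describes their few libraries and is no call. The share of all genes with such groups is not given beside it.

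Plin2, Fabp1 and Cidec carried most of the called changes, so the stretches upstream of their start sites are shown first. They come from RefSeq promoter windows of GRCm38.p6, cut at the outermost annotated transcript start, and read 5′ to 3′ on the strand of the gene. Capitals mark matches to the hexamer AGGTCA or its reverse complement TGACCT, which nuclear receptors such as PPAR-alpha bind, and to a direct repeat of the looser hexamer AGGNCA with 1 base of any kind between the copies. Both were searched on both strands, and a repeat may contain the exact hexamer.
Plin2, chr4:86670061-86670309, minus strand: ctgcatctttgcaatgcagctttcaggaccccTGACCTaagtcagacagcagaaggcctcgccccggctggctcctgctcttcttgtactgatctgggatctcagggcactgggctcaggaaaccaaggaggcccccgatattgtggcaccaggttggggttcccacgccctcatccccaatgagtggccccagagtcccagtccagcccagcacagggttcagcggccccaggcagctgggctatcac
Fabp1, chr6:71199629-71199826, plus strand: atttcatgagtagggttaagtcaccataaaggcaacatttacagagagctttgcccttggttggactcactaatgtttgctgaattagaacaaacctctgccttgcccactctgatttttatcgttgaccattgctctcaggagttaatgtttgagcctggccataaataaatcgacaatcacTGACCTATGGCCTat
Cidec, chr6:113435761-113436010, minus strand: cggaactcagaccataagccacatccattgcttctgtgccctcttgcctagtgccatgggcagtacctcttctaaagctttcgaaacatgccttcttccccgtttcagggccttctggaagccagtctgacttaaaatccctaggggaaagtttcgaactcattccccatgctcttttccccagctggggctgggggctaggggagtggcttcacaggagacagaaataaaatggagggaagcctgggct
The Fabp1 window held the direct repeat as TGACCTATGGCCT, which begins 67 bases before the RefSeq start site. Between the end of the printed Fabp1 stretch and that site lie 52 bases, and a second TGACCT, which begins 9 bases before the site, falls in the part not printed. The Plin2 window held a lone hexamer, 218 bases before its RefSeq start site. These letters were not found in the Cidec window. Of 32851 mouse promoter windows of 300 bases, 16.255% held the exact hexamer and 0.381% the direct repeat. A match describes the sequence only.

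Per kilobase of exon, Fabp1 was by far the most abundant of the 10, with a median over the 8 group means of 2713 CPM per kb. Cidec followed at 54.6, Fabp2 at 41.7, G0s2 at 37.0 and Plin2 at 28.3 CPM per kb. The other 5 lay lower, with Plin5 at 6.37, Plin4 at 3.59, Cd36 at 3.31, Pnpla2 at 2.80 and Cidea at 2.37 CPM per kb. In counts over all libraries, Fabp1 had 14904, Plin2 1033 and Cidec 938, while Cd36 had 110, Pnpla2 94, Plin5 93 and Cidea 34. The less abundant genes therefore rest on a handful of counts per library. The expression filter kept 8 of the 10 and removed Plin5 and Cidea. It kept Cd36 only through libraries of Western diet groups, and Pnpla2 only with the help of its m12_CD+VC libraries.

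Plin2, the main perilipin of hepatocyte droplets, was the gene whose diet change depended most clearly on earlier VC. At 12 months it stood at 6.02, 87.2 and 72.4 CPM in m12_CD, at 203, 278 and 96.6 in m12_WD, at 229, 246 and 320 in m12_CD+VC and at 91.9, 126 and 59.0 in m12_WD+VC. The m12_CD+VC libraries were all above those of m12_CD and of m12_WD+VC, while m12_WD overlapped m12_CD+VC at its upper end and m12_WD+VC at its lower. In clean air Western diet raised Plin2 from 55.2 ± 43.2 to 193 ± 90.9 CPM (SD, n = 3), a log2 change of 1.42 ± 0.45 (SE; edgeR adjusted p = 0.0208). Libraries after VC went the other way, from 265 ± 48.4 to 92.4 ± 33.7 CPM, with a log2 difference of -1.50 ± 0.45 that missed the threshold (edgeR adjusted p = 0.0842). It was called by limma-voom (-1.41, 0.0239) and when only the compared groups were fitted (-1.52, 0.0104). The difference between these diet changes was -2.91 ± 0.64 on the log2 scale (adjusted p = 0.00741), and 9.81% of the 4198 genes were called in that test. It was called under every one of the 22 alternatives run, with values from -3.46 to -2.29 and adjusted p from 0.00112 to 0.0377. With class-wise scaling it was -2.29 (adjusted p = 0.0230).

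On control diet, Plin2 was higher 9 months after VC than after clean air, with a log2 change of 1.94 ± 0.46 (edgeR adjusted p = 0.0167). On Western diet the VC difference was -0.97 ± 0.44 (adjusted p = 0.429). The single-contrast calls were less stable than the interaction. The control-diet call was lost without m12_CD 1 (log2 1.46, adjusted p = 0.103) or m12_CD+VC 2 (0.0685), with class-wise scaling (1.52, 0.0508) and among entries without an overlap tested alone. The diet call in clean air was lost without m12_CD 1 (log2 0.92, adjusted p = 0.134), m12_WD 1 (0.0640) or m12_WD 2 (0.118), with class-wise scaling (1.01, 0.0810), when only the compared groups were fitted (0.105) and among entries without an overlap tested alone (0.0969). These contrasts share groups, so a high m12_CD+VC enters 2 of them and a low m12_CD another pair. Markers of hepatocytes moved with Plin2. The summed CPM of the 12 hepatocyte markers ran from 15586 to 33735 in m12_CD+VC, 8074 to 18255 in m12_WD, 6207 to 9425 in m12_WD+VC and 2532 to 9267 in m12_CD, and its part in the result was not tested. In bulk liver, fewer cells of a type and less RNA per cell cannot be told apart.

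**Figure D1:**
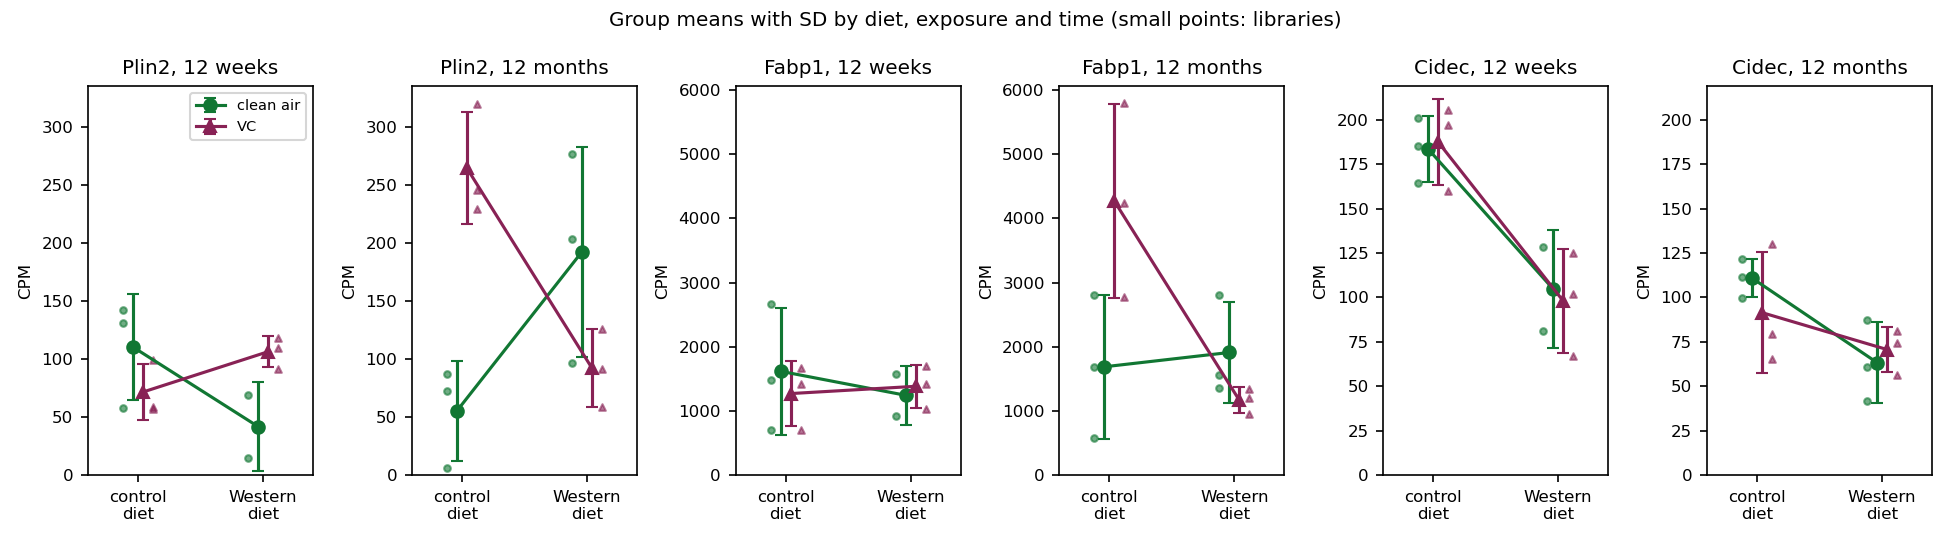
Mean CPM with SD for Plin2, Fabp1 and Cidec by diet (x axis), exposure (green circles clean air, purple triangles VC) and time; small points are libraries, and w12_WD has n = 2. The Plin2 lines cross at 12 months, from 55.2 to 193 CPM in clean air and from 265 to 92.4 CPM after VC, while both Cidec lines run downwards at both times.

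Plin4, a perilipin best known from adipocytes that lies beside Plin5 on chromosome 17, rose with Western diet in clean air at 12 months. It stood at 6.02, 8.50 and 33.6 CPM in m12_CD and at 51.8, 39.3 and 88.3 in m12_WD. The groups did not overlap on this scale, but did after TMM scaling. The log2 change was 1.56 ± 0.53 (edgeR adjusted p = 0.0293). The call was lost without m12_CD 1 (0.142), m12_CD 2 (0.145) or m12_WD 3 (log2 1.09, 0.153). Limma-voom (0.0515), a fit without the expression filter (0.11) and a fit of only the compared groups (0.115) did not call it either. Library m12_WD 3 alone gave 85 of the 129 Plin4 counts in its group. Without m12_CD 3 the log2 change was 2.64 (adjusted p = 0.00505). Averaged over exposure, Plin4 was not called by edgeR, but was with RLE scaling (1.27, 0.0359) and limma-voom (1.16, 0.0425). After VC, Plin4 was at 21.3 ± 10.2 CPM on control diet and 32.9 ± 11.2 on Western diet, which was no called change.

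Plin5, the perilipin of oxidative tissues that links droplets to mitochondria, was too sparse to test. Its group means lay between 9.58 ± 6.09 CPM in w12_CD+VC and 15.97 ± 10.7 in m12_WD+VC (SD, n = 3). Every group overlapped every other in its library values once the 0 in m12_WD 3 is counted. In that library, the one with most counts, Plin5 had 0 counts, against 12 and 8 in m12_WD 1 and 2.

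Cidec, which promotes the growth of large droplets, was lower on Western diet. In clean air at 12 months it stood at 111, 99.9 and 122 CPM in m12_CD and at 61.1, 41.8 and 87.3 in m12_WD. The highest Western diet library was below the lowest control library. The log2 change was -1.14 ± 0.33 (edgeR adjusted p = 0.0117), so that Cidec fell while the coat genes Plin2 and Plin4 rose in the same comparison. Class-wise scaling kept the call at -1.53 (adjusted p = 0.00320). RLE scaling (-0.75, 0.0640), DESeq2 (-0.75, 0.174), a fit of only the compared groups and leaving out m12_WD 2 (-0.96, 0.0571) ended it. After VC the diet difference was -0.35 on the log2 scale and was not called, with 91.5 ± 34.2 CPM in m12_CD+VC and 70.7 ± 12.7 in m12_WD+VC.

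Averaged over clean air and VC at 12 months, the Cidec diet change was -0.74 ± 0.24 (edgeR adjusted p = 0.0366), in a test that called 13.4% of genes. It was lost under 12 of 22 alternatives, among them leaving out m12_CD 1, m12_CD 3, m12_CD+VC 3, m12_WD 1, m12_WD 2, m12_WD+VC 1 or m12_WD+VC 2 (adjusted p 0.0538 to 0.218). At 12 weeks, Cidec was at 201, 164 and 185 CPM in w12_CD and 197, 206 and 160 in w12_CD+VC, against 128 and 81.1 in w12_WD and 67.0, 102 and 125 in w12_WD+VC. No Western diet library reached the lowest control diet library. The diet difference averaged over exposure was -0.90 ± 0.25 on the log2 scale (edgeR adjusted p = 0.0968), which missed the threshold in the main test and passed it with limma-voom (-0.81, adjusted p = 0.0221). Across the study Cidec was thus highest in the control-diet livers of 12 weeks and lowest in m12_WD, at 63.4 ± 22.8 CPM.

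Cidea, the family member known from brown fat and from fatty liver, was close to the limit of detection. It had 0 counts in all 6 control-diet libraries of 12 weeks and 0 in all 3 of m12_WD+VC. In w12_WD+VC it had 1, 3 and 1 counts, in m12_CD+VC 0, 1 and 4, and in m12_WD 1, 1 and 17. The pooled ratio of m12_WD to m12_CD was 5.91 from 19 against 2 counts (95% counting interval 1.43 to 52.4), and 17 of the 19 counts came from m12_WD 3. Against m12_WD+VC, with a floor of 3 counts over the group, m12_WD was at least 3.89-fold higher, again mainly through that library. The intervals cover counting error only, and no test was made.

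Fabp1, the liver fatty acid binding protein and one of the most abundant proteins of the hepatocyte cytosol, was highest on control diet after VC. At 12 months it stood at 572, 2813 and 1676 CPM in m12_CD, at 2771, 5802 and 4237 in m12_CD+VC, at 1558, 2810 and 1363 in m12_WD and at 947, 1345 and 1198 in m12_WD+VC. The m12_CD+VC and m12_WD+VC libraries did not overlap, while the m12_CD libraries spread from below all of m12_WD+VC to within the range of m12_CD+VC. With VC, the diet lowered Fabp1 by a log2 change of -1.82 ± 0.39 (edgeR adjusted p = 0.0114). Fabp1 was the 1 of the 8 tested members called in that comparison, which called 1.81% of all tested genes. Class-wise scaling kept it (-1.55, 0.0285), and leaving out m12_CD+VC 2 (0.0687), m12_WD+VC 1 (0.0624) or m12_WD+VC 2 (0.0814) ended the call, as did testing entries without an overlap alone (0.128).

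In clean air the Fabp1 diet difference was -0.14 on the log2 scale and not called. The difference between the diet changes was -1.68 ± 0.54 (edgeR adjusted p = 0.0452), close to the threshold. It was lost under 14 of 22 alternatives. With class-wise scaling it was -1.01 (adjusted p = 0.237), and leaving out m12_CD 1 gave -1.29 (0.130). Leaving out m12_CD 3, m12_CD+VC 2, m12_CD+VC 3, m12_WD 1, m12_WD 2 or any 1 library of m12_WD+VC also ended the call (0.0593 to 0.145), and full library totals gave -1.59 (0.0503). The Fabp1 diet change averaged over exposure was -0.98 ± 0.27 (adjusted p = 0.0131) and was lost with RLE scaling (-0.88, 0.0544), DESeq2 (-0.88, 0.0830) and without m12_CD 2 (-0.74, 0.0733). On control diet VC went with a Fabp1 difference of 1.04 ± 0.38 that missed the threshold (adjusted p = 0.0922), though RLE scaling (1.47, 0.0301) and DESeq2 (1.48, 0.0373) called it. The hepatocyte marker sums given with Plin2 were highest in m12_CD+VC as well.

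Fabp2, the intestinal-type carrier that mouse liver also expresses, was at 15.1, 48.9 and 20.7 CPM in m12_CD and at 61.1, 123 and 65.5 in m12_WD. The groups did not overlap, and the log2 difference was 1.14 ± 0.45 (edgeR adjusted p = 0.0565), just short of the threshold. It was called with RLE scaling (1.54, 0.0195), without m12_CD 2 (1.73, 0.0219) and with the replicate number as a block (1.18, 0.0414). After VC it stood at 66.5 ± 15.4 CPM on control and 53.2 ± 16.7 on Western diet. The enterocyte markers Lct, Sis, Alpi, Cdx1 and Cdx2 were at 0 in all libraries. Others on that list were present, with 1 count of Krt20, 25 of Vil1 and 12221 of Apoa4, which liver also makes.

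Cd36, the fatty acid translocase, had uneven counts in Western diet livers. In clean air at 12 months it had 0, 3 and 1 counts in m12_CD and 15, 26 and 0 in m12_WD. The 0 fell in m12_WD 3, whose 962493 counts would allow up to 3.12 CPM, against 27.8 and 63.9 CPM in m12_WD 1 and 2. The log2 difference was 2.67 ± 1.03 (edgeR adjusted p = 0.0553), and 3.24 without m12_WD 3 (0.00418). RLE scaling (3.09, 0.0326) and a fit without the expression filter (2.58, 0.0492) called it too. The Cd36 interaction at 12 months was -2.74 and not called, and without m12_WD 3 it was -3.32 (0.0411). At 12 weeks with VC, Cd36 had 22 counts on Western and 3 on control diet, a ratio of 6.85 (95% counting interval 2.06 to 35.8), where every w12_WD+VC library lay above every w12_CD+VC library. The log2 difference of 2.79 ± 1.15 did not pass (adjusted p = 0.378). Because the expression filter kept Cd36 only through Western diet libraries, its higher level on Western diet is partly built in.

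Pnpla2, the lipase, was higher in every library after VC on control diet at 12 months, yet was not called. It stood at 3.01, 4.25 and 5.17 CPM in m12_CD, from 1, 2 and 2 counts, and at 28.3, 31.7 and 28.6 CPM in m12_CD+VC, from 10, 4 and 11 counts. The log2 difference was 2.40 ± 0.95 (edgeR adjusted p = 0.11). Without these m12_CD+VC libraries Pnpla2 would not have passed the expression filter, so its height in that group lends no independent support. On Western diet the groups stood at 9.79 ± 8.73 CPM in clean air and 22.3 ± 6.37 after VC. Its inhibitor G0s2 passed the threshold in none of the 16 comparisons with edgeR. G0s2 group means ran from 14.1 ± 2.23 CPM in w12_CD to 50.8 ± 23.5 in m12_WD, and the library values of all groups at 12 months overlapped.

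At 12 weeks the members showed no called change in any of the diet, VC or interaction tests with edgeR, and DESeq2 called none either, while limma-voom called 1, Cidec for diet averaged over exposure. The shares of all genes called there were 0.0238% for diet in clean air, 0.524% for diet with VC, 0% for VC on control diet, 0% for VC on Western diet, 0.333% for diet averaged over exposure and 0.0238% for the interaction. At an unadjusted p under 0.05, 2 of the 8 tested members differed for diet in clean air (Plin2 and Cidec; 5.65% of all genes), 2 for diet with VC (Cd36 and Cidec; 10.7%), and 0 for VC on control diet (4.05%). By the same rule 2 differed for VC on Western diet (Plin2 and Fabp2; 5.6%), 1 for diet averaged over exposure (Cidec; 11.8%) and 1 for the interaction (Plin2; 4.43%). The Plin2 interaction had the opposite sign to that at 12 months, at 1.85 ± 0.74 on the log2 scale (adjusted p = 0.912). It rests on libraries at 68.9 and 14.8 CPM in w12_WD against 91.7, 109 and 118 in w12_WD+VC. Plin2 was at 132, 142 and 57.6 CPM in w12_CD and 57.0, 99.3 and 58.7 in w12_CD+VC, which overlap. Of the 12-month groups, m12_CD+VC was the one in which every library lay above all 12-week libraries of Plin2.

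Between 12 weeks and 12 months, Plin2 and Fabp1 rose and Cidec fell on control diet after VC. Length of feeding and time since exposure ended differ together in all such time comparisons, and age is not given. Their parts cannot be told apart. In that comparison 3 of the 8 tested members were called and 6.38% of all tested genes. The log2 changes were 1.77 ± 0.47 for Plin2 (edgeR adjusted p = 0.0231), 1.56 ± 0.39 for Fabp1 (0.0184) and -1.18 ± 0.34 for Cidec (0.0366). With class-wise scaling Plin2 (1.38, 0.0588) and Fabp1 (1.17, 0.0608) lost the call and Cidec kept it (-1.55, 0.0159), while RLE ended the call of Cidec (-0.96, 0.0627), as did DESeq2, a fit without the expression filter and a fit of only the compared groups. Testing entries without an overlap alone ended the calls of Plin2 and Fabp1. Plin2 also lost it without w12_CD+VC 1 (0.0910), w12_CD+VC 3 (0.0939) or m12_CD+VC 3 (0.0892), and Fabp1 without w12_CD+VC 3 (0.109), m12_CD+VC 2 (0.0782) or m12_CD+VC 3 (0.0550). Cidec lost it without any 1 of w12_CD+VC 1, w12_CD+VC 2, w12_CD+VC 3, m12_CD+VC 1 and m12_CD+VC 2 (0.0619 to 0.122). Hepatocyte markers moved with Plin2 and Fabp1: their summed CPM ran from 5930 to 10289 in w12_CD+VC and from 15586 to 33735 in m12_CD+VC, and 11 of the 11 tested markers were above 0, 2 of them called. Their part in the result was not tested.

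On Western diet in clean air, Plin2 rose with time by 1.78 ± 0.55 and Fabp2 by 1.84 ± 0.58 on the log2 scale (edgeR adjusted p = 0.0267 and 0.0281). These were 2 of the 8 tested members, in a comparison that called 14.6% of tested genes. The w12_WD group holds the 607-count library. Without it the changes were 1.69 (0.0432) and 1.76 (0.0435). Without w12_WD 2 they were 1.33 (0.252) and 1.49 (0.209), and without m12_WD 2 they were 1.42 (0.11) and 1.46 (0.113). Without w12_WD 1, Plin2 stood at 3.45 (0.0376) and Fabp2 at 3.20 (0.0710), and without m12_WD 1 Plin2 was at 1.63 (0.0644). Class-wise scaling ended both calls (1.37, 0.0752 and 1.45, 0.0738), as did testing entries without an overlap alone, and DESeq2 and a fit without the expression filter ended that of Fabp2. The hepatocyte marker sum ran from 4588 to 9132 CPM in w12_WD and from 8074 to 18255 in m12_WD. Cidec stood at 128 and 81.1 CPM in w12_WD against 61.1, 41.8 and 87.3 in m12_WD, groups that overlap on this scale and not after TMM scaling. Its log2 difference of -0.89 ± 0.38 was not called (edgeR adjusted p = 0.108), but was with class-wise scaling (-1.20, 0.0491), limma-voom (-1.19, 0.0136) and without m12_WD 3 (-1.29, 0.0304). On control diet in clean air, where 1.62% of genes were called, and on Western diet after VC, where 0.786% were, edgeR, DESeq2 and limma-voom called 0 members. With edgeR, 0 members had an unadjusted p under 0.05 in either, against 14.6% and 11.8% of all genes.

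**Figure D2:**
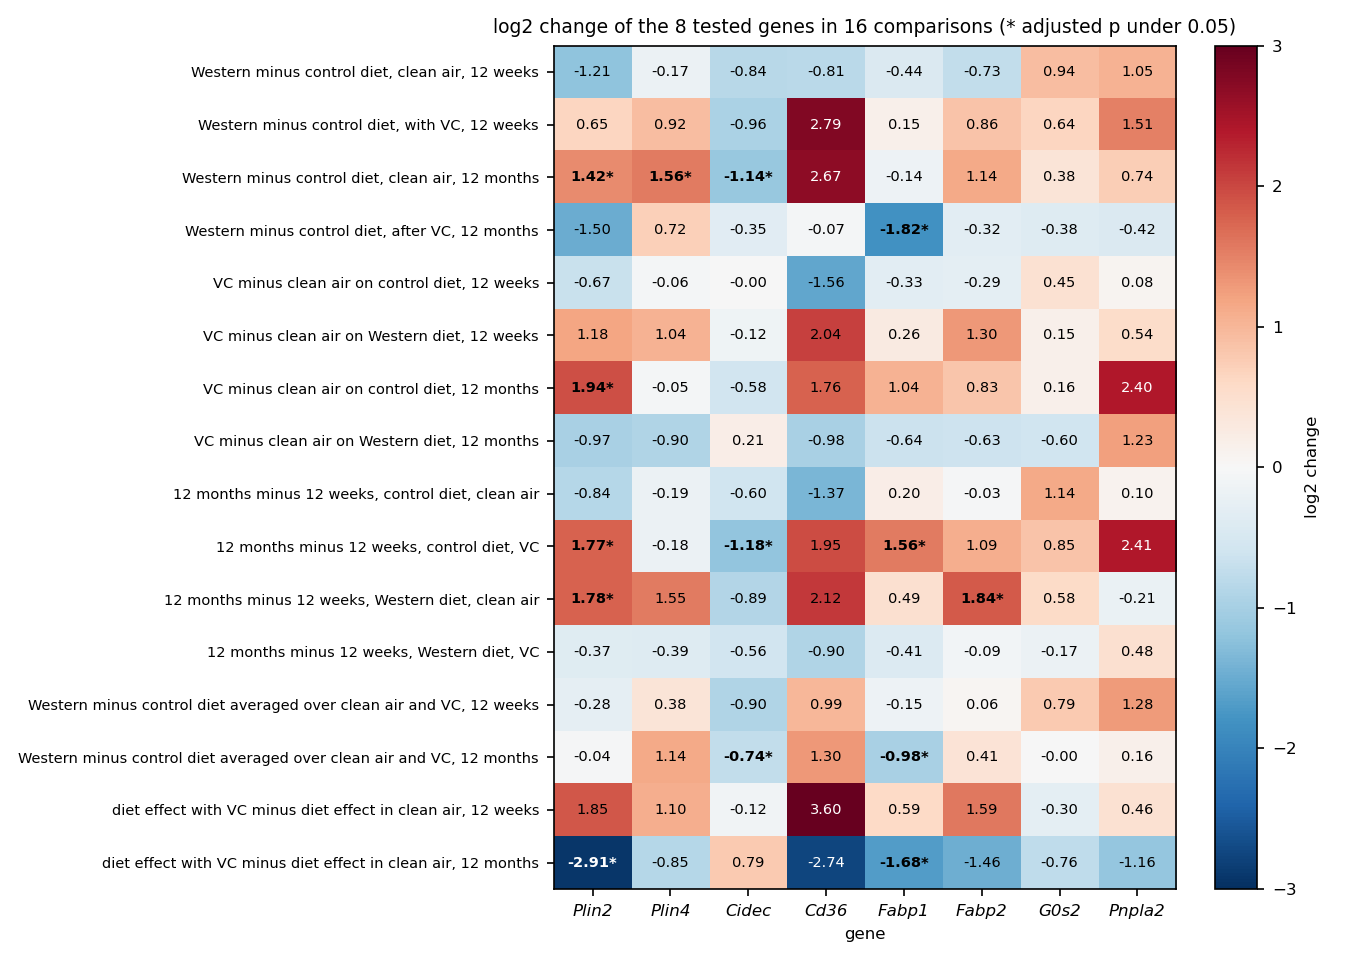
Log2 change of the 8 tested genes (columns) in the 16 comparisons (rows), with red above 0 and blue below 0 and an asterisk where the edgeR adjusted p was under 0.05. Calls number 14, and Plin2 has 5 of them, from -2.91 for the 12-month interaction to 1.94 for VC on control diet.

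Read as a list, the members moved in both directions. For diet in clean air at 12 months, 2 of the 8 tested members were called higher and 1 lower. Of all 4198 tested genes 24.5% were called in either direction, 13.4% higher and 11.1% lower. The median log2 change of the 8 tested members was 0.94, and 0.11 over all genes. For VC on control diet 1 member was called, against 5.22% of genes, and the median was 0.94 against 0.07. For diet after VC the median was -0.36 against -0.01, with 1 of 8 members and 49.3% of all genes above 0. For VC on Western diet edgeR called 0 members and 0.572% of genes, with 1 member (Plin2) and 10.9% of genes at an unadjusted p under 0.05, and DESeq2 and limma-voom called 0. In the 12-month interaction 2 members were called, both lower, against 6.48% of genes called lower, and the median was -1.31 against -0.04. Of the 8 tested members, 7 have no opposite-strand overlap. Over all tested genes of that class the interaction median was -0.73, with 10.4% called lower, and the median was 0.42 over those with an overlap. The same class had medians of 0.475 for diet in clean air, 0.58 for VC on control diet and -0.23 for diet after VC. Its shares called in either direction were 24.6%, 6.95% and 1.82%. The 11 tested hepatocyte markers had medians of 0.68, 1.29 and -1.08 in that order, and -1.95 in the interaction. How far the members followed these shifts was not tested. Cd36 and Pnpla2, which the filter kept only through groups where they are high, enter the member medians.

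Genes that work beside the members had their own changes at 12 months. In clean air Western diet raised 6 of 8 tested genes of lipolysis and lipid ester hydrolysis and lowered 0, with a median log2 change of 2.16. Over all 4198 genes 13.4% were called higher and the median was 0.11. The list held 12 genes, of which 8 passed the expression filter. As the lists were chosen with earlier results of these data known, these shares describe the genes and lend no independent support. The same holds for the list shares below. Of the 11 tested hepatocyte markers 4 were called higher, with a median of 0.68. Macrophage and Kupffer cell markers had 5 of 8 called higher (median 1.93), and lipid-associated macrophage markers 4 of 4 (5.91). Stellate cell markers had 2 of 2 (2.67), adipocyte markers 1 of 2 (2.39), endothelial markers 1 of 4 (0.86) and enterocyte markers 0 of 1 (0.12). These are the markers that passed the expression filter, from lists of 12, 12, 6, 7, 10, 9 and 8 genes in the order given. Some passed mainly through 12-month Western diet libraries, among them Lpl and Fabp4. For such genes a higher level on Western diet is partly built in. The part of these cell types in the list's change was not tested. Lysosomal acid lipase Lipa rose from 4.56 ± 4.29 to 52.7 ± 35.7 CPM (log2 2.96 ± 0.72, edgeR adjusted p = 0.00322). The carboxylesterase Ces1d rose from 22.1 ± 12.5 to 160 ± 9.36 CPM (2.46 ± 0.50, 0.000657), though reads of the Ces1 family, a cluster of similar genes, cannot be assigned with certainty. Lipoprotein lipase Lpl had 0 counts in m12_CD and 121 in m12_WD, at least 25.1-fold higher with 3 counts set as the floor for m12_CD as a whole (adjusted p = 0.000226). Of 8 triglyceride assembly and secretion genes 3 rose, with a median of 1.16, among them the acyltransferase Agpat2 (1.81 ± 0.41, 0.00194) and the lipoprotein scaffold Apob (1.92 ± 0.37, 0.000336).

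Of 9 genes of fatty acid uptake, binding and activation 4 rose in the same comparison, with a median of 0.78. They included the adipocyte and macrophage carrier Fabp4, with 61 counts against 1, a ratio of 38.0 (95% counting interval 6.56 to 1524). Of 8 transcription factors of hepatic lipid genes 3 rose, with a median of 0.83, and Ppara, the gene of PPAR-alpha, rose from 3.70 ± 4.36 to 48.6 ± 28.1 CPM (3.09 ± 0.73, edgeR adjusted p = 0.00244). Of 6 other droplet coat and assembly genes 2 rose, with a median of 1.10. The changes of Lipa, Ces1d, Lpl, Agpat2, Apob, Fabp4 and Ppara were called under every alternative in which the gene was tested. They were picked for naming after these values were seen. The other genes that the naming rule takes here lost the call under some alternatives. Creb3l3 lost it under 11 of 16, Slc27a2 and Acsl1 each under 5 of 15, and Agpat3 and Mlxipl each under 4 of 15. Hsd17b13 lost it under 3 of 16 and Hsd17b11 under 1 of 16. The lists hold genes of different cell types, and Lpl was also on the list of lipid-associated macrophage markers.

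After VC, Western diet raised 0 of the 39 tested genes of these 5 lists and lowered 1, the acyl-CoA binding protein gene Dbi (log2 -2.34 ± 0.57, edgeR adjusted p = 0.0267). Dbi lost that call with RLE scaling and without any 1 of m12_CD+VC 1, m12_CD+VC 2 and the 3 m12_WD+VC libraries (adjusted p up to 0.130). In the 12-month interaction the lists had medians of -1.34 for droplet coat and assembly, -3 for lipolysis, -2.13 for triglyceride assembly, -2.06 for uptake and activation and -1.11 for transcription factors, with 1 of 6, 6 of 8, 1 of 8, 4 of 9 and 1 of 8 genes called lower and 0 higher. Over all genes 6.48% were called lower and the median was -0.04. Some marker lists moved the same way: 7 of 11 tested hepatocyte markers were called lower, with a median of -1.95, and 3 of 4 lipid-associated macrophage markers, with a median of -3.84. Macrophage and Kupffer cell markers had 2 of 8 called lower (median -1.3). Called lower were 0 stellate (median -2.75), endothelial (-0.475), adipocyte (-0.239) or enterocyte markers (-0.0461). The part of these cell types in the changes of the pathway lists was not tested, and Apob is on both the hepatocyte and the triglyceride assembly list. The acyl-CoA synthetase gene Acsl5 was highest in m12_CD+VC at 147 ± 40.9 CPM, followed by m12_WD at 92.2 ± 31.5, m12_WD+VC at 51.3 ± 7.97 and m12_CD at 30.8 ± 17.5. Its interaction of -2.65 ± 0.59 (edgeR adjusted p = 0.00785) was called under all 21 alternatives run for it. Acsl5 thus had the same order of 12-month group means as Plin2, but this order was not particular to them. The mean sum of the hepatocyte markers had it too, at 23155, 14111, 7683 and 6805 CPM. Hnf4a (154, 110, 100 and 61.6 CPM) and Slc27a2 (543, 446, 321 and 158 CPM) also followed it.

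Several members are also expressed outside hepatocytes, so marker lists were summed beside them. The adipocyte markers Adipoq, Lep, Adig and Ucp1 were at 0 in all libraries, and Plin1 and Retn had 1 count each. The others were present, with 118 counts of Fabp4, 116 of Adrb3, 106 of Lipe and 45 of Cfd. The summed CPM of the 10 adipocyte markers lay between 18.1 and 24.1 in m12_CD and between 44.7 and 95.8 in m12_WD. Fabp4, which is on that list, went from a mean of 0.862 to 36.4 CPM, while the mean sum went from 21.2 to 64.1. The 6 lipid-associated macrophage markers summed to 392 to 597 CPM in m12_WD, 212 to 284 in m12_WD+VC, 67.7 to 190 in m12_CD+VC and 21.1 to 59.5 in m12_CD. The 12 macrophage and Kupffer cell markers had the same order, from 549 to 791 CPM in m12_WD, 311 to 555 in m12_WD+VC, 229 to 308 in m12_CD+VC and 66.2 to 140 in m12_CD. Endothelial markers, 9 in all, reached 333 to 375 CPM in m12_WD against 124 to 153 in m12_CD, and 7 stellate cell markers 170 to 181 against 6.02 to 25.5. The 4 cholangiocyte markers summed to 17.2 to 27.0 against 0 to 5.17 CPM, and 7 lymphocyte and neutrophil markers to 11.1 to 47.8 against 0 to 4.25. Of the 8 enterocyte markers, whose sum ran from 744 to 1750 CPM in m12_CD and 1275 to 2476 in m12_WD, Apoa4, which liver also makes, held 12221 counts over all libraries and Vil1 25. The part of these cell types in the changes of Plin2, Plin4, Cd36 and Fabp2 was not tested. The hepatocyte markers Alb, Ttr and Apoa1 were high, with 38348, 4338 and 21828 counts, while Ass1 was listed at 0.

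Across the 23 larger libraries, the genes whose log2 CPM followed Plin2 most closely were lactate dehydrogenase Ldha (Pearson r = 0.895), Aldh1a1 (0.884) and Iqgap2 (0.882). Fabp1 was most like albumin Alb (0.859), Abcd3 (0.856) and Haao (0.845), and Fabp2 most like Mybbp1a (0.865), Aldh4a1 (0.864) and Lonp1 (0.848). Cidec was most like Nfatc3 (0.863), Nrg4 (0.856) and Ptpn9 (0.853). The 3 genes nearest Cidec overlap a gene on the other strand and the 3 nearest Plin2 and Fabp1 do not. Between members, Plin2 had r = 0.697 with Fabp2 and 0.689 with Fabp1, and Cidec had r from -0.59 with Fabp2 to -0.171 with Fabp1. These values describe the libraries, which share groups and depth.

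**Figure D3:**
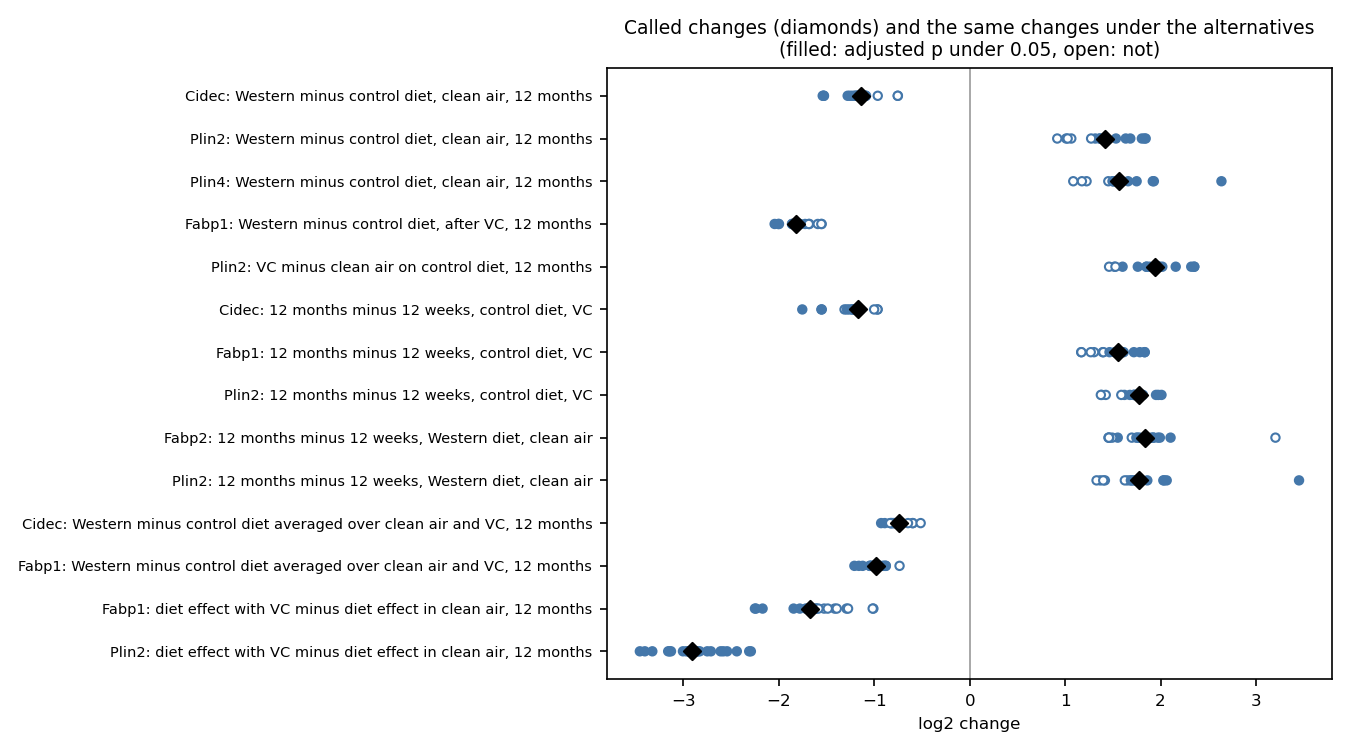
Log2 change of each of the 14 called results (black diamonds) with its values under the alternatives (circles, filled where the adjusted p was under 0.05). The circles of the Plin2 interaction at 12 months, from -3.46 to -2.29, are all filled, and no circle lies on the other side of 0 from its diamond.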

How the data were processed

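Ribosomal RNA was removed from total liver RNA before TruSeq library construction, per the labels' protocols. The tools HTSeq 0.11.2, HISAT2 2.1.0 and Trimmomatic 0.38 and the build mm10 are named in the submitters' processing notes. The authors deposited raw counts per gene, and per-sample log2 values, found on checking to be log2 of the count over a size factor, plus 1, and not used in tests.

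The 24 libraries were fitted in one edgeR 4.0.16 quasi-likelihood model (R 4.3.3) with 8 groups, the filterByExpr filter, library totals over the 4198 kept genes, TMM scaling and 16 comparisons, each adjusted over all kept genes. Of the 24421 genes 8880 had 0 counts throughout. The common biological coefficient of variation was 0.317. Means use CPM of the full library total. The script was tested on simulated data. Replicate libraries differed beyond sampling noise (chi-square per degree of freedom 2.41 to 10.59). Opposite-strand overlaps come from the GENCODE M21 annotation of GRCm38. Alternatives used DESeq2 1.42.0 and limma 3.58.1.

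Members, lists and naming rule were chosen with earlier results of these data known. All members are described; from each pathway list up to 3 called genes per comparison with the smallest adjusted p could be named, and the robust ones were selected after their values were seen. The library totals were switched from full totals after a first run; the switch added 1 member call, Fabp1 in the 12-month interaction (see the closing section). The genes most like Plin4 are not reported here.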

Additional observations from a re-analysis of the deposited data

Results flagged for a closer look

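The difference between the diet change after VC and the diet change in clean air at 12 months passed the test for 2 members and for 13 of the 39 tested genes of the pathway lists, each with a lower diet change after VC. The members and the 9 pathway genes that the naming rule takes are given here. The values are edgeR log2 differences with adjusted p. Plin2 had -2.91 (0.00741) and Fabp1 -1.68 (0.0452). Among lipases and esterases, Lipa had -3.99 (0.0149), Ces1d -2.95 (0.0102) and Ces3a -2.43 (0.0139). Among genes of fatty acid activation and binding, Acsl5 had -2.65 (0.00785), Acsl1 -2.41 (0.0216) and Dbi -2.88 (0.0197). Apob had -2.47 (0.00549), the nuclear receptor gene Ppara -3.51 (0.0221) and the droplet protein gene Hsd17b13 -2.17 (0.0452). Plin2 and Acsl5 kept the call under every alternative run for them. Apob kept it under all but the test of entries without an overlap alone (adjusted p = 0.0521), and Ces1d under all but leaving out m12_CD+VC 2 (0.0551). Lipa lost it without m12_WD 2 or m12_WD+VC 3 (up to 0.0515), Ces3a without m12_CD+VC 2 or m12_WD 2 (up to 0.0753), and Acsl1 without m12_CD 1, m12_CD+VC 2, m12_WD 1, m12_WD 2 or m12_WD+VC 3 (up to 0.101). Dbi and Ppara lost it with class-wise scaling, among entries without an overlap tested alone and without m12_CD 1, m12_WD 2 or m12_WD+VC 3. Ppara also lost it with limma-voom and without m12_CD+VC 2 (up to 0.166 for Dbi and 0.0728 for Ppara). Hsd17b13 lost it in 13 of 22 alternatives, 8 of which left out 1 library (up to 0.154). All 11 results rest on the same 12 libraries.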

How the results depend on the processing

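Of 247 pairs of a called member change and an alternative, 163 kept the call, 84 lost it and 0 turned direction. Plin2 in the 12-month interaction kept it throughout. Counts of called members stayed within 1.5 times of the main count in 222 of 280 cases. For diet in clean air at 12 months 3 members were called in the main fit, 0 when only the compared groups were fitted, 1 among entries without an opposite-strand overlap, and 1 to 3 with 1 library left out. For diet after VC the main count was 1, with 2 by limma-voom and in the groups alone, 0 among entries without an overlap, and 0 to 1 with a library left out. For VC on control diet the main count was 1, with 2 by RLE and DESeq2, 0 by class-wise scaling and among entries without an overlap, and 0 to 2 with a library left out. For time on control diet after VC it was 3, with 1 by class-wise scaling and among entries without an overlap, and 0 to 2 with a library left out. For time on Western diet in clean air it was 2, with 1 by DESeq2 or without the filter, 1 by class-wise scaling (Cidec, while both main calls were lost), 0 among entries without an overlap, and 0 to 4 with a library left out. For diet averaged over exposure it was 0 at 12 weeks, with 1 by limma-voom, and 2 at 12 months, with 1 without the filter, in the groups alone and among entries without an overlap, 1 by RLE (Plin4, while both main calls were lost), 0 by DESeq2, and 1 to 2 with a library left out. For the 12-month interaction it was 2, with 1 by class-wise scaling, without the filter, in the groups alone, among entries without an overlap and with full library totals, and 1 to 3 with a library left out. Full library totals were the setting of a first run and lost Fabp1 there (adjusted p = 0.0503). That setting, the entries without an overlap and a fit of 23 libraries with the filter recomputed were chosen after seeing the data. The cause of these changes was not tested, except that fewer genes or samples enter some fits.

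Counts over all genes moved too: with 1 library left out, diet in clean air at 12 months called 632 to 1056 (main 1028), diet after VC 2 to 73 (76), VC on control diet 0 to 346 (219) and the interaction 99 to 644 (412). Diet in clean air had 632 without m12_CD 1, diet after VC 2 without m12_WD+VC 2, VC on control diet 0 without m12_CD 1 or m12_CD+VC 2 and 346 without m12_CD+VC 3, and the interaction 99 without m12_WD+VC 3 and 644 without m12_WD 3. With all other alternatives they ran from 372 to 1168, 35 to 159, 18 to 442 and 126 to 520. RLE moved the median log2 change of all genes by 0.39, -0.126, 0.417 and -0.516 in these 4 comparisons, so each change is to be read against the TMM scale. Class-wise scaling moved entries without an overlap by -0.396, 0.234, -0.466 and 0.632. Replicate numbers did not pair the libraries: 16 of 77 same-numbered pairs had a correlation of deviations over 0.1, with a median of 0.00702. With the replicate block, 4 members were called for diet in clean air at 12 months and 3 for diet averaged over exposure, where it added Plin4 (0.0398), and no member call was lost. Of 46 called pathway gene changes, 11 were called under every alternative and 0 of 790 values turned direction. Few counts limit Plin5, Cidea, Cd36 and Pnpla2, each under 150 counts in all.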
